A study of Mus musculus with 6 samples.

Results

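The 9 genes described here encode the chains of 3 kinds of collagen that do not build the main fibrils of scar: the beaded-filament chains *Col6a1*, *Col6a2* and *Col6a3*, the short chains *Col8a1* and *Col8a2*, and the chains of fibril-associated collagens *Col12a1*, *Col14a1*, *Col16a1* and *Col22a1*. They were chosen by gene symbol from the 28987 genes of the deposited table, and all 9 were among the 15109 genes tested, whose linear values averaged 1 or more. Each chain exceeded a linear value of 1 in every library. They were read by RNA-seq in 6 libraries of EGFP+ cells, sorted from mouse ventricles. The mice had a MerCreMer cDNA in the *Postn* locus and a Cre-dependent eGFP reporter in the Rosa locus, and were operated on by transverse aortic constriction (TAC), a narrowing of the aorta that puts the heart under pressure overload. Mice of the 3 control libraries carried these alleles alone, and those of the 3 Hsp47-deleted libraries also carried loxP-targeted *Hsp47*, the gene of a chaperone that binds procollagen in the endoplasmic reticulum. Mice of both groups were 8 to 10 weeks old at surgery and received tamoxifen, injected at 100 mg/kg and fed in chow at 40 mg/kg by the labels, and cells were taken 4 weeks after TAC. The study's methods state other doses. Recombination in this model reaches the cells that switch on *Postn*, so the reporter marks activated fibroblasts and not every fibroblast of the heart.

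Type VI collagen is built from 3 different chains that assemble inside the cell and join outside it into beaded microfilaments between the basement membrane and the fibrillar matrix. Type VIII collagen is a short, network-forming collagen of vessel walls and of the membrane beneath the corneal endothelium, with *Col8a1* and *Col8a2* encoding its 2 chains. Types XII and XIV sit on the surface of type I fibrils, type XVI is found at fibrils and basement membranes, and type XXII marks tissue junctions such as the one between muscle and tendon. All share the collagen triple helix, in which glycine recurs in each triplet of residues, and it is on this helix that Hsp47 acts.

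The repeat can be read in the coding sequence. Shown are the first 10 repeats of the longest unbroken run in the chains on which the results turn, from GENCODE release M21 transcripts, 5′ to 3′, with the glycine codons in capitals. The numbers of codons are counted from the start codon, and the stretches begin at codon 352 of *Col8a1*, 312 of *Col8a2*, 2805 of *Col12a1* and 1107 of *Col22a1*.
Col8a1: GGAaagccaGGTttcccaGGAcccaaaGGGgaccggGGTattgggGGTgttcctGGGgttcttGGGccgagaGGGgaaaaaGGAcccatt
Col8a2: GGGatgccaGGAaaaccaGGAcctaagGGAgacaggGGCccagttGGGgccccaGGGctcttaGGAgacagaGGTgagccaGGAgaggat
Col12a1: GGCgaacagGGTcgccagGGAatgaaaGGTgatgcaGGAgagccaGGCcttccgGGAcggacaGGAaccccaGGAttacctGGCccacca
Col22a1: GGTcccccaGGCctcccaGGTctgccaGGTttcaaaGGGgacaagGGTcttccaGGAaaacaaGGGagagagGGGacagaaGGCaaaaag

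The chains differ widely in how much of them is helix. Counting runs of at least 6 glycine triplets, 59.9% of the 1613 codons of *Col22a1* lay in such runs, the longest with 113 repeats. *Col16a1* followed with 55.6% of 1580 codons, broken into 15 runs, and *Col8a2* and *Col8a1* with 48.5% of 699 and 40.7% of 744. In *Col6a1* and *Col6a2* the share was 28.1% and 31.9%, with 87 repeats in the longest run of each. The share was lowest in *Col12a1* (7.6% of 3065 codons), *Col6a3* (9.7% of 2677 codons in the transcript used) and *Col14a1* (13.0% of 1798 codons), whose proteins are mostly made of other domains.

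In GRCm38, *Col6a1* (chromosome 10, 76708792 to 76726168) and *Col6a2* (chromosome 10, 76595762 to 76623630) are neighbours on the minus strand, and *Col6a3* lies apart from them on chromosome 1 (90765923 to 90843971). *Col8a1* is on chromosome 16 (57624258 to 57754737) and *Col8a2* on chromosome 4 (126286793 to 126314330), which also holds *Col16a1* (130047840 to 130099283). *Col12a1* is on chromosome 9 (79598991 to 79718831), and *Col14a1* (55307750 to 55520803) and *Col22a1* (71795795 to 72034227) are on chromosome 15. Each value below is 1 number for the whole gene, all exons together. No chain had a near-identical copy elsewhere among the transcripts. *Col12a1*, *Col14a1* and *Col22a1* overlap annotated RNAs on the opposite strand and *Col6a3* overlaps 1 on its own strand, and since the counting is not stated to use strand, reads of such pairs cannot be told apart.

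The values are log2(value + 1) as deposited. The linear unit behind them is not named, the number of reads per library is unknown, and levels of different genes are compared here on the assumption that the values are per transcript length. By the labels, control replicates 3 and 4 were sequenced in the run with the lower number (here the first run). The other 4 libraries, control replicate 2 among them, were in the run with the higher number (here the second run). For each chain the difference from control replicate 2, which has no test, is therefore given with the difference from all controls. A fit with run as a covariate estimates this same difference, as control replicate 2 is the only control of the second run. Its p-values set that library against the Hsp47-deleted ones, with the spread taken from the other libraries, and are no separate check. Mitochondrial genes took 23.5 to 29.4% of the linear total in the controls and 4.70 to 7.23% in the Hsp47-deleted libraries, and the median log2 fold change over all tested genes was 0.36 rather than 0. *Serpinh1*, the table's symbol for *Hsp47*, differed by 0.07 ± 0.43 (SE) between the groups (BH-adjusted p = 0.947 in limma) and by -0.87 from control replicate 2. Groups are therefore called by their labels throughout, also where a direction is given. The paper reports an efficient loss of the Hsp47 protein by Western blot in sorted EGFP+ cells, which RNA values do not measure. Fibroblast markers summed to 6170 to 8730 in the controls and 10600 to 12100 in the Hsp47-deleted libraries in the linear unit, above the sum of each other marker list. The sums came mostly from *Dcn* (5090 to 7400 in the controls and 7750 to 8640 in the Hsp47-deleted libraries). *Postn* was at 56.9 to 68.5 in the controls and 1190 to 1450 in the Hsp47-deleted libraries. *Tcf21* (26.9 to 87.4 and 154 to 203), *Pdgfrb* (14.8 to 50.9 and 51.4 to 89.3) and *Col1a2* (474 to 552 and 595 to 886) were also higher without overlap. *Ddr2*, *Pdgfra* and *Col1a1* overlapped between the groups. Of 8 leukocyte markers *Ptprc* was listed at 0 in every library. *Adgre1* was under 1 (0.0712 to 0.41 in the controls and 0.592 to 0.836 in the Hsp47-deleted libraries). *Cd14* was at 0.419 to 0.973 and 2.08 to 5.03, and neither of them overlapped. Over both groups *Cd68* was at 19.2 to 63.6, *Itgam* at 3.13 to 14.3 and *Lyz2* at 1.29 to 56.7. These markers, *Csf1r* (0.966 to 5.13) and *C1qa* (0 to 2.53) overlapped between the groups.

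Of the 9 chains, 8 had a positive log2 fold change, as did 74.5% of all tested genes. *Col22a1* was the 1 chain called at a BH-adjusted limma p under 0.05, which 37 genes or 0.245% of those tested passed in either direction and 0.232% as higher. At an unadjusted p under 0.05, 5 chains differed (*Col8a2*, *Col12a1*, *Col16a1* and *Col22a1* higher in the Hsp47-deleted libraries, *Col8a1* lower), against 15.2% of all genes, 14.5% for higher and 0.755% for lower. In 4 of the 9 (*Col8a2*, *Col12a1*, *Col16a1* and *Col22a1*) the lowest Hsp47-deleted library stood above the highest control, a pattern held by 18.3% of all genes. Groups without overlap in either direction were found for 19.8%, and for 1.5% with the Hsp47-deleted libraries lower, among them none of the chains. The median over the chains was 0.71, 0.36 above that of all genes. Against control replicate 2 it was 0.16, below the 0.29 of all genes, and the chains parted into those that differed from that library too and those that did not.

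**Figure D1:**
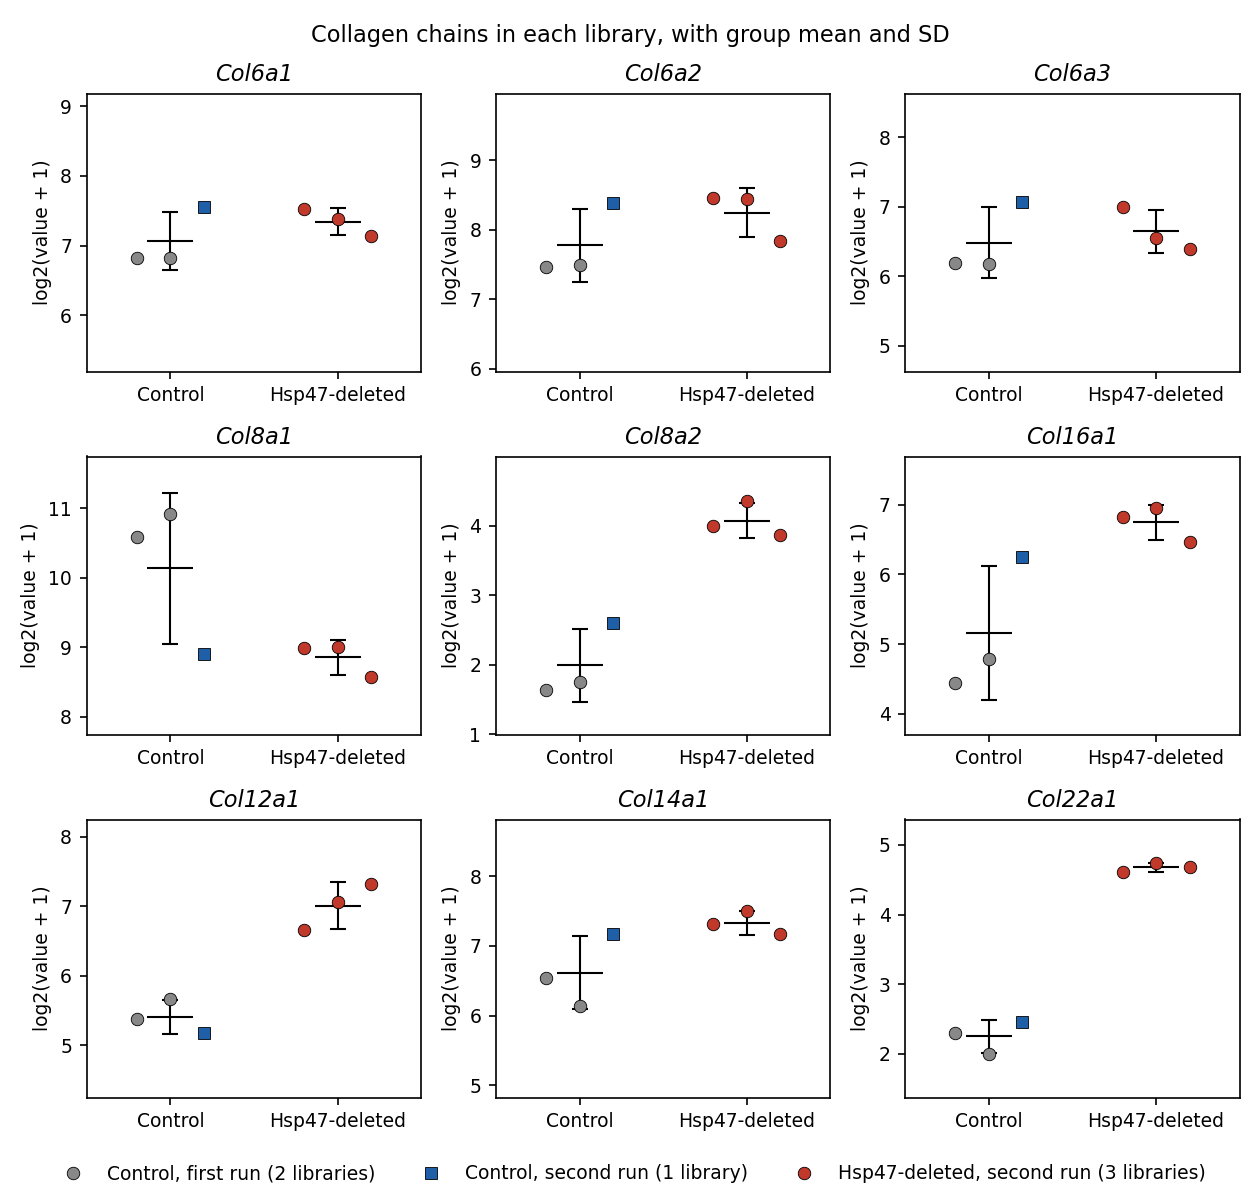
Level of each collagen chain as log2(value + 1) in the 3 control and 3 Hsp47-deleted libraries, with group mean and SD, each panel spanning 4 log2 units. Grey circles are the controls of the first run, the blue square is control replicate 2 of the second run and red circles are the Hsp47-deleted libraries; the blue square sits with the grey circles for *Col12a1* and *Col22a1*, with the red ones for *Col8a1* and the type VI chains, and between them for *Col8a2* and *Col16a1*.

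*Col22a1* was low in all controls and higher in all Hsp47-deleted libraries. On the log2 scale the controls read 2.30 and 1.99 in the first run and 2.46 in the second, and Hsp47-deleted replicates 1, 2 and 3 read 4.61, 4.74 and 4.68. The groups were separated by a gap of 2.15, and both lay within a narrow range of their own. The means were 2.25 ± 0.24 (SD, n = 3) and 4.68 ± 0.066 (SD, n = 3), and the log2 fold change of 2.43 ± 0.29 (SE) had a BH-adjusted limma p of 0.0293 and came to 5.37-fold on the scale of value + 1. This was higher than in 98.8% of the genes tested. The difference from control replicate 2 alone was 2.22. The call did not hold without any 1 library other than control replicate 2 (limma, BH-adjusted p from 0.147 to 0.221), nor with run as a covariate (2.22 ± 0.36 (SE), limma, BH-adjusted p = 0.0995).

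*Col12a1*, whose product bridges type I fibrils and their surroundings, followed the same division. The controls read 5.38, 5.66 and 5.18 for replicates 3, 4 and 2, and the Hsp47-deleted libraries 6.65, 7.06 and 7.31. Control replicate 2 was the lowest of the 6 libraries here, and the groups did not overlap. With means of 5.41 ± 0.24 (SD, n = 3) and 7.01 ± 0.33 (SD, n = 3), the log2 fold change came to 1.60 ± 0.30 (SE, limma, BH-adjusted p = 0.120), a 3.03-fold difference that did not pass the threshold. The difference from control replicate 2 was 1.83, larger than the pooled one, and with run as a covariate the unadjusted limma p was 0.00159 and the BH-adjusted p 0.197.

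*Col8a2* had the lowest mean of the chains in the controls, at 1.63, 1.76 and 2.60 in replicates 3, 4 and 2, and stood at 4.00, 4.36 and 3.86 in the Hsp47-deleted libraries. Control replicate 2 was the highest control, and still 1.27 below the lowest Hsp47-deleted library. Group means of 1.99 ± 0.52 (SD, n = 3) and 4.07 ± 0.26 (SD, n = 3) gave 2.08 ± 0.37 (SE) as log2 fold change (limma, BH-adjusted p = 0.0999), or 4.22-fold. Against control replicate 2 it was 1.48. At such low values the pseudocount matters, the log2 fold change being 2.39 with 0.1 (limma, BH-adjusted p = 0.126) and 1.37 with 5 (limma, BH-adjusted p = 0.0974).

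*Col22a1*, *Col12a1* and *Col8a2* were thus the chains above every control and at least 1 log2 unit above control replicate 2. Of all tested genes, 509 or 3.37% met this description, which was chosen after the values had been seen.

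*Col8a1*, the partner chain of *Col8a2*, was the most abundant of the 9 in both groups and the 1 chain with a negative fold change. It read 10.58 and 10.92 in the controls of the first run, 8.90 in control replicate 2, and 8.99, 9.0 and 8.57 in the Hsp47-deleted libraries. The control of the second run lay inside the range of the Hsp47-deleted libraries, 1.85 below the other controls. The pooled difference was -1.28 ± 0.53 (SE, limma, BH-adjusted p = 0.323). The difference from control replicate 2 was -0.047, with Hsp47-deleted libraries from 0.33 below it to 0.10 above it. With 1 control in the second run, the run and the state of that library cannot be told apart. Without control replicate 2 the group difference was -1.90 (limma, BH-adjusted p = 0.00641), a comparison in which group and run coincide and cannot be told apart. Markers of mural cells, which also lie in vessel walls, summed to 166 to 291 in the linear unit in the controls (226 in control replicate 2) and 122 to 185 in the Hsp47-deleted libraries. These sums came mostly from *Rgs5* (139 to 253 and 86.8 to 139). *Mcam* was higher in the Hsp47-deleted libraries (5.12 to 11.1 and 12.3 to 19.3), and the remaining mural markers overlapped between the groups. Endothelial markers summed to 92.6 to 248 (248 in control replicate 2) and 157 to 235. The part of mural and endothelial cells in the *Col8a1* values was not tested.

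The distance between the type VIII chains was also read within each library. On the log2 scale *Col8a1* exceeded *Col8a2* by 8.95 and 9.16 in the controls of the first run, by 6.31 in control replicate 2, and by 4.99, 4.65 and 4.71 in the Hsp47-deleted libraries. The 3 Hsp47-deleted values lay together below every control. The groups differed by -3.36 (exact permutation test, two-sided p = 0.1, the smallest that 3 against 3 libraries allow, BH-adjusted p = 0.2 over 16 chain ratios), and the difference from control replicate 2 was -1.53, most of which came from *Col8a2*.

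Promoters of this pair, whose 2 chains can join in 1 collagen, are given as a description. They are the 250 bases before the RefSeq start in GRCm38.p6, 5′ to 3′ on the strand of the gene, at chr16:57754738-57754987 on the minus strand for *Col8a1* and chr4:126286544-126286793 on the plus strand for *Col8a2*. Capitals mark matches on either strand to GGGCGG, the GC box.
Col8a1: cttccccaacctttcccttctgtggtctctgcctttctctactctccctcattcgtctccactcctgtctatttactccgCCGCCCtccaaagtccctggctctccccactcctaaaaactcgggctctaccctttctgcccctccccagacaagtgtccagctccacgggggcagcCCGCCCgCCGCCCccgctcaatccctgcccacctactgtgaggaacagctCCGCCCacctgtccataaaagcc
Col8a2: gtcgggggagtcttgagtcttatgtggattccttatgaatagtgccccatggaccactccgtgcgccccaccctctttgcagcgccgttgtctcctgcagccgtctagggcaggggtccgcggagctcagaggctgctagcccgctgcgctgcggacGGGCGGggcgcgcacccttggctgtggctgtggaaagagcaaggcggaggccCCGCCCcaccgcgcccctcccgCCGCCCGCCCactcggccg

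Over these 250 bases before the start, each promoter held GGGCGG 4 times, overlapping matches included, against 32.7% of 32851 RefSeq promoters that hold it at all. Neither held TATAAA (12.4% of promoters) or CCAAT (33.8%), and neither held the AP-1 site TGANTCA (6.7%) or the TEAD motif CATTCC (12.6%). The E box CANNTG (66.2%) was found 2 times in *Col8a1* and not in *Col8a2*. The windows of *Col6a2* held GGGCGG 1 and 3 times, and that of *Col6a1* did not hold it. These are matches of letters and say nothing of binding.

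None of the type VI chains passed the test. In the order of control replicates 3, 4 and 2, *Col6a2* was at 7.46, 7.49 and 8.38, and in the Hsp47-deleted libraries at 8.46, 8.44 and 7.84. *Col6a1* was at 6.82, 6.82 and 7.55, and then at 7.52, 7.39 and 7.13. *Col6a3* was at 6.19, 6.18 and 7.07, and then at 6.99, 6.55 and 6.39. In all 3, both controls of the first run were the lowest libraries and control replicate 2 was near or above the highest Hsp47-deleted library, so the groups overlapped. The pooled log2 fold change was 0.47 ± 0.37 (SE) for *Col6a2* (limma, BH-adjusted p = 0.543), 0.28 ± 0.32 for *Col6a1* (limma, BH-adjusted p = 0.684) and 0.16 ± 0.35 for *Col6a3* (limma, BH-adjusted p = 0.840), each within 1 SE of the median of all genes. Against control replicate 2 they were -0.14, -0.21 and -0.43. Their sign turned with the scaling: centring each library on its median gave -0.14 for *Col6a1*, -0.25 for *Col6a3* and 0.05 for *Col6a2*, and rescaling to protein-coding genes gave -0.21, -0.32 and -0.022.

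The distances between the type VI chains were read within each library. *Col6a1* was below *Col6a2* by 0.63 to 1.05 log2 units in all 6 libraries, and the groups overlapped (difference -0.19, exact permutation test, two-sided p = 0.2, BH-adjusted p = 0.246). *Col6a3*, whose product carries a long chain of von Willebrand A domains, was below *Col6a1* by 0.48 to 0.84, with groups that also overlapped (difference -0.12, exact permutation test, two-sided p = 0.4, BH-adjusted p = 0.457). It was below *Col6a2* by 1.27, 1.31 and 1.31 in the controls (replicates 3, 4 and 2) and by 1.47, 1.89 and 1.45 in the Hsp47-deleted libraries. The last of these ratios did not overlap between the groups and was alike in the 3 controls of both runs. Its difference was -0.31 (exact permutation test, two-sided p = 0.1, BH-adjusted p = 0.2), and -0.29 from control replicate 2. Much of it came from Hsp47-deleted replicate 2, without which the difference was -0.16.

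*Col14a1* and *Col16a1*, the remaining fibril-associated chains, lay between the patterns above. *Col16a1* read 4.44 and 4.78 in the first run, 6.26 in control replicate 2 and 6.83, 6.95 and 6.46 in the Hsp47-deleted libraries. The groups were separated by 0.21, and control replicate 2 lay 1.65 above the other controls. The log2 fold change was 1.59 ± 0.48 (SE, limma, BH-adjusted p = 0.282), and 0.49 against control replicate 2. *Col14a1* read 6.54 and 6.13 in the first run, 7.17 in control replicate 2, and from 7.17 to 7.50 in the Hsp47-deleted libraries, the lowest of which was level with control replicate 2. Its log2 fold change came to 0.71 ± 0.34 (SE, limma, BH-adjusted p = 0.354), and to 0.16 against control replicate 2. Types XII and XIV occupy like positions on the fibril, and *Col12a1* relative to *Col14a1* was 0.89 higher in the Hsp47-deleted libraries, 1.67 against control replicate 2, but the groups overlapped (exact permutation test, two-sided p = 0.2, BH-adjusted p = 0.246).

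**Figure D2:**
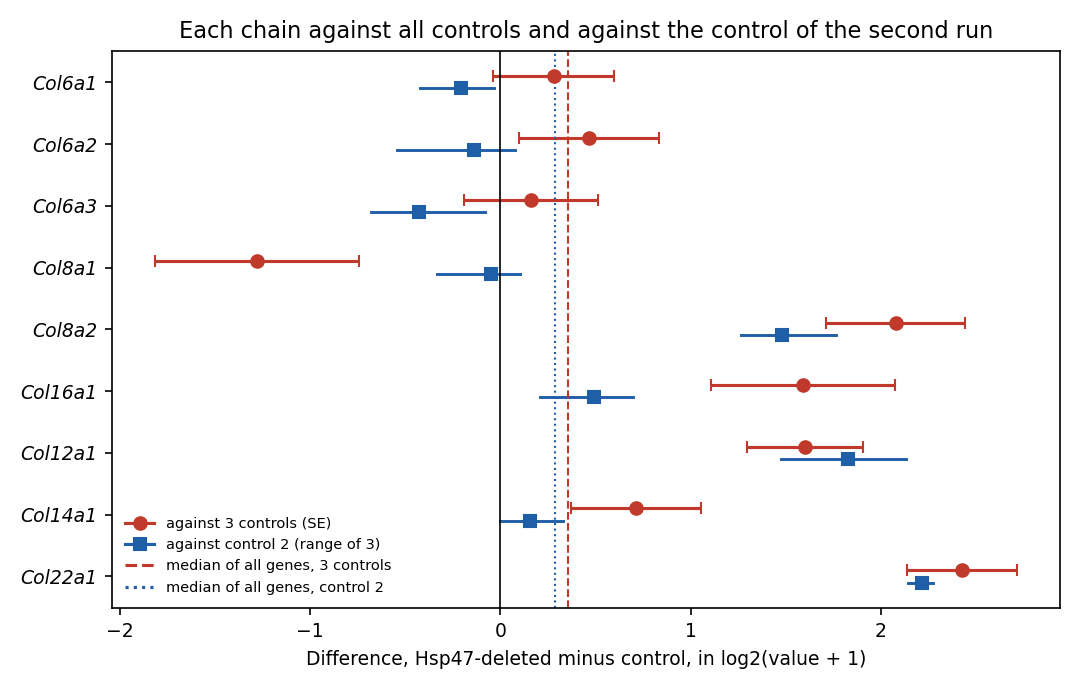
Difference in log2(value + 1) between the Hsp47-deleted libraries and all 3 controls (red circles, bars are the standard error of limma) or control replicate 2 alone (blue squares, bars span the 3 Hsp47-deleted libraries), for each chain, with the median of all tested genes as dashed and dotted lines at 0.36 and 0.29. *Col22a1*, *Col12a1* and *Col8a2* stay above 1 in both, while *Col8a1* moves from -1.28 to -0.047 and *Col16a1* from 1.59 to 0.49.

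The order of levels was led by *Col8a1*, *Col6a2*, *Col6a1* and *Col14a1* in both groups and closed by *Col22a1* and *Col8a2*. In the controls *Col8a1* stood 2.36 log2 units above *Col6a2*, with no overlap, whereas from *Col6a2* through *Col6a1* and *Col14a1* to *Col6a3* each overlapped with its neighbour. *Col12a1* and *Col16a1* formed a lower pair that overlapped, and *Col22a1* and *Col8a2* the lowest, 2.91 below *Col16a1*. The lead of *Col8a1* over *Col6a2* was 3.12 and 3.43 in the controls of the first run, 0.52 in control replicate 2 and 0.53 to 0.73 in the Hsp47-deleted libraries. In the latter, *Col6a1*, *Col14a1*, *Col12a1*, *Col16a1* and *Col6a3* each overlapped with their neighbour. *Col12a1* thus moved from below *Col6a3* by 1.07, without overlap, to a mean above it.

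As a share of the summed linear values of 44 collagen genes, the 9 chains made up 44.8% and 49.2% in the controls of the first run, 32.1% in control replicate 2 and 31.7%, 28.2% and 30.8% in the Hsp47-deleted libraries. *Col8a1* set most of this, with 33.5% and 38.9% in the controls of the first run and 9.05 to 11.0% in the 4 libraries of the second. The other 8 chains took 11.3%, 10.3% and 21.1% in the controls and 19.2 to 21.5% in the Hsp47-deleted libraries. The 4 fibril-associated chains together took 3.43%, 2.98% and 5.94%, and then 7.93%, 8.15% and 10.1%, without overlap. Within them the share of *Col12a1* was 0.810 to 0.998% in all 3 controls and 2.01 to 3.87% in the Hsp47-deleted libraries, and that of *Col22a1* 0.0599 to 0.104% and 0.454 to 0.606%. These shares share a denominator, so that a lower *Col8a1* raises the others.

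**Figure D3:**
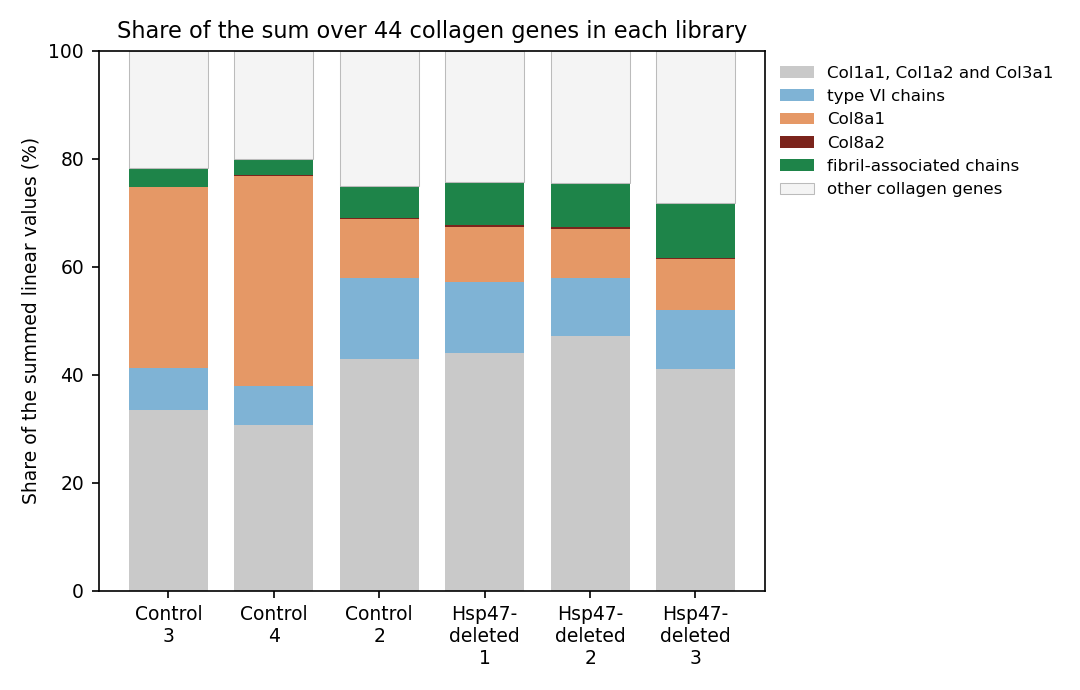
Stacked bars of the percent of the linear values summed over 44 collagen genes, for each of the 6 libraries. The *Col8a1* segment is 33.5% and 38.9% in control replicates 3 and 4 and at most 11.0% in the other libraries, and the segment of the fibril-associated chains grows from at most 5.94% in the controls to at least 7.93% in the Hsp47-deleted libraries.

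Set against *Col1a1*, the main chain of type I collagen (log2 fold change 0.67 ± 0.34 (SE), limma, BH-adjusted p = 0.374), 4 of the 9 chains had ratios that did not overlap between the groups, as had 12.7% of all genes tested. *Col22a1* gained 1.76, *Col8a2* 1.41 and *Col12a1* 0.93 on *Col1a1*, while *Col8a1* was at -1.95 (exact permutation test, two-sided p = 0.1 for each, BH-adjusted p = 0.2). Against control replicate 2 the first 3 gained 1.83, 1.09 and 1.45, and *Col8a1* was at -0.43. The ratio of *Col14a1* to *Col1a1* differed by 0.04 (two-sided p = 0.9 in the exact permutation test), and the type VI chains had differences from -0.51 to -0.20 that overlapped.

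Other chains of the same kinds were read beside them. Of 10 related chains 9 were in the table and 4 were tested, and none passed a BH-adjusted limma p of 0.05. At an unadjusted limma p under 0.05, 1 of them was higher, against 14.5% of all genes. *Col20a1*, a fibril-associated chain, read 0.72, 2.40 and 1.93 in the controls and 3.17, 3.23 and 3.38 in the Hsp47-deleted libraries, without overlap (1.58 ± 0.46 (SE), limma, BH-adjusted p = 0.276). Its difference from control replicate 2 was 1.33. In log2 fold change *Col9a3* was at 0.58, *Col9a2* at 0.17 and *Col6a6* at -0.34, and against control replicate 2 they were at 0.56, -0.41 and -0.86. *Col6a4*, *Col6a5*, *Col9a1*, *Col10a1* and *Col19a1* were below the filter, and *Col21a1* was not analysed here. *Col6a5* reached 2.58 in control replicate 2 and at most 0.73 in every other library.

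Among the genes that work with these chains, few passed the test. Of 9 fibrillar collagen genes tested (11 listed) none was called, with a median log2 fold change of 0.67, and the smallest p belonged to *Col11a2* (1.59, limma, BH-adjusted p = 0.282) and *Col5a2* (0.84, BH-adjusted p = 0.283). Of 10 receptors and integrin chains that bind collagen none was called, with a median of 0.34, led by *Itga11* (1.73, limma, BH-adjusted p = 0.0727), the collagen-binding integrin α11 of fibroblasts, and *Ddr1* (0.96, BH-adjusted p = 0.332). Of 16 genes for collagen folding and modification none was called, with a median of 0.78. At an unadjusted limma p under 0.05, 5 of them were higher, against 14.5% of all genes, led by *P3h3* and *Fkbp10* (1.25 and 1.13, limma, BH-adjusted p = 0.282 and 0.283). Of 9 fibril-binding matrix partners 2 were called, both higher, against 0.232% of all genes called as higher: *Comp*, which binds fibrillar and fibril-associated collagens (3.70), and the small proteoglycan *Fmod* (2.42), each with a BH-adjusted limma p of 0.0485. Against control replicate 2 they were 2.53 and 2.45 higher. With run as a covariate the call of *Comp* held (limma, BH-adjusted p = 0.0285) and that of *Fmod* did not (limma, BH-adjusted p = 0.108). Neither held with a replicate block (limma, BH-adjusted p = 0.320 for both) or in the 5 fits that each dropped one of the remaining libraries and kept control replicate 2 (limma, BH-adjusted p from 0.105 to 0.279). Centring, quantile normalization, rescaling to protein-coding genes, no filter and a pseudocount of 0.1 also lost both calls (limma, BH-adjusted p from 0.0604 to 0.218). Both held with a filter at a mean of 5, a pseudocount of 5, and limma without the trend or robust. With GC and length trends removed only that of *Comp* held. Set against control replicate 2, *Itga11* was at 1.49, *Ddr1* at 0.33, *Col11a2* at 1.23, *Col5a2* at 0.69, *P3h3* at 0.48 and *Fkbp10* at 0.65, and the list medians were 0.38 for fibrillar chains, 0.24 for receptors, 0.32 for folding and modification and 0.16 for matrix partners (0.66 against all controls). Over all genes tested the median was 0.36, and 0.29 against control replicate 2.

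Type XXII and XII collagens are known from tendon and from junctions with muscle, and markers of tendon cells were therefore read beside them. The 4 markers *Scx*, *Tnmd*, *Mkx* and *Thbs4* summed to 284 to 463 in the controls and 732 to 886 in the Hsp47-deleted libraries in the linear unit, mostly from *Thbs4*. *Tnmd* lay at 8.64 to 16.8 in the control and 46.1 to 55.6 in the Hsp47-deleted libraries, *Scx* overlapped (1.74 to 5.69 and 4.56 to 14.8), and *Mkx* was under 1 in every library. At an unadjusted limma p under 0.05, 2 of the 3 tested were higher, against 14.5% of all genes, and none was called after adjustment. Leukocyte markers summed to 37.9 to 86.6 and 95.8 to 124, and cardiomyocyte markers to 46.6 to 272 (272 in control replicate 2) and 164 to 253. The part of these cells in the *Col22a1*, *Col12a1* and *Col8a2* values was not tested, and in sorted bulk cells more cells of a kind and more RNA per cell cannot be told apart.

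Each of 4 rescalings lowered the log2 fold change of all 9 chains, together with the median of all genes, which moved from 0.36 to -0.060 with centring, -0.048 with quantile normalization, -0.051 after rescaling to protein-coding genes and -0.0038 with GC and length trends removed. The median over the chains stood above it by 0.36 as deposited and by 0.36, 0.39, 0.28 and 0.41 in the same order. With libraries centred on their medians the log2 fold changes of *Col22a1*, *Col8a2* and *Col12a1* were 2.01, 1.66 and 1.18, with quantile normalization 2.03, 1.69 and 1.25, after rescaling to protein-coding genes outside the mitochondrial genome 2.00, 1.67 and 1.12, and with trends in GC content and length removed 1.96, 1.28 and 1.31. The BH-adjusted limma p of *Col22a1* was then 0.0717 to 0.0868, above the threshold.

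**Figure D4:**
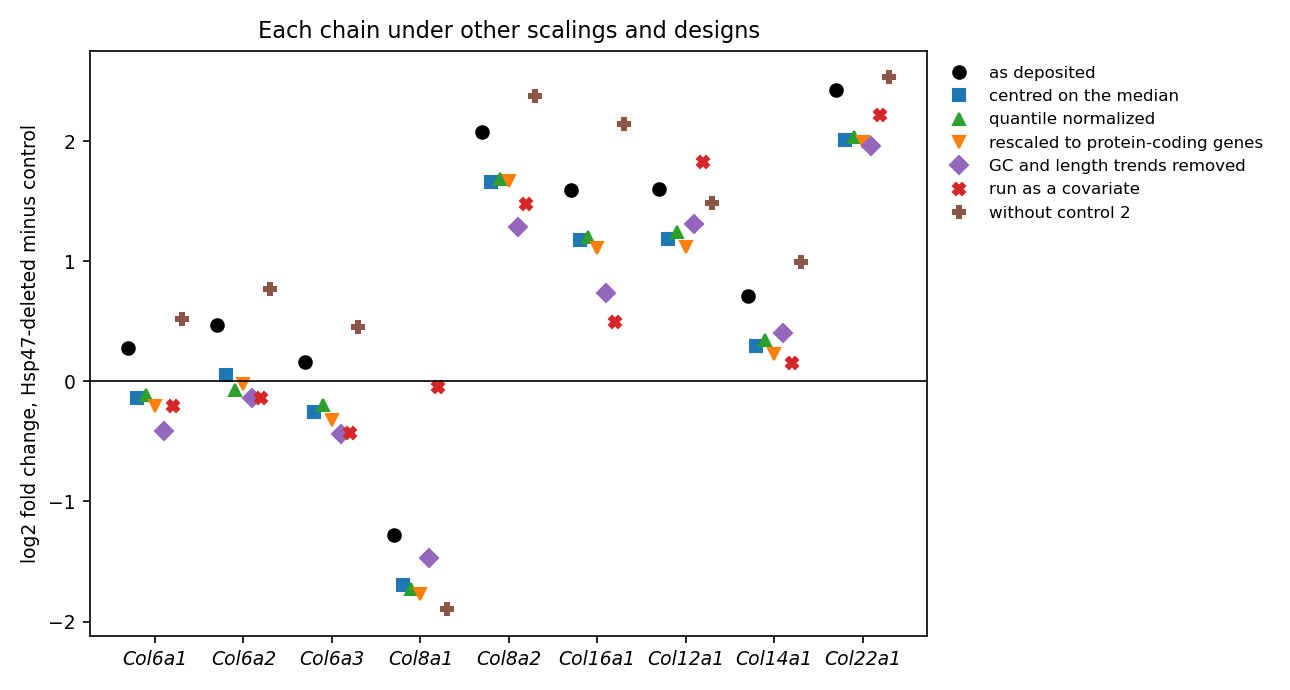
Log2 fold change of each chain, Hsp47-deleted minus control, as deposited and under 6 other scalings or designs. *Col22a1*, *Col8a2*, *Col12a1*, *Col16a1* and *Col14a1* stay above 0 in all, *Col8a1* stays below 0 but reaches -0.047 with run as a covariate, and the type VI chains change sign.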

How the data were processed

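Total RNA of the sorted EGFP+ cells was amplified and sequenced by the authors. The deposited table gives log2(value + 1) of 28987 genes in each library. The submitters' processing notes name kallisto and mm10, and the paper names AltAnalyze. The linear unit is not given in the sources used here, the values are not counts, and the depth is unknown. The authors' columns of group means, folds and p-values were not used.

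Log2 values were used as deposited, with their pseudocount of 1. The 15109 genes with a linear mean of at least 1 over the 6 libraries were tested with limma 3.58.1 under R 4.3.3 (lmFit, eBayes with a mean-variance trend, no covariate), with Benjamini-Hochberg (BH) adjustment over all of them. Within-library differences between 2 chains (16 in all) were compared by two-sided exact permutation tests in scipy 1.17.1, with BH adjustment over the 16. The labels do not say that each library came from its own mouse, so p-values measure only the spread between these samples, which may be technical. On data simulated for the 15109 genes, with independent noise of each gene's own spread, 38 of 200 genes changed by 2 log2 units were called, with 2 unchanged ones. With no change simulated, 0 were called. The simulation held no difference between runs and no shift shared by genes, so it cannot show how often these give false calls.

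Positions and coding sequences are from GENCODE release M21 (GRCm38) and promoters from RefSeq (GRCm38.p6), in which 6 of the 9 chains were matched. Copies were sought with minimap2 2.31-r1302. *P3h3* and other genes listed under older symbols were matched by Ensembl identifier.

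Named are the 9 chains, *Serpinh1*, *Col1a1*, the related chains, the 2 genes of each other list with the smallest p, and for each of 3 patterns the 3 protein-coding genes closest to it (for the mean of the type VI chains, not reported here). Marker genes and *Col6a5* were named in addition. The chains and lists were chosen with earlier results of these data known. Alternatives were run as a covariate, the second run alone, a replicate block, other filters (none, and a mean of 5), pseudocounts of 0.1 and 5, centring, quantile normalization, rescaling to protein-coding genes, removal of GC and length trends (lowess, span 0.3), limma without the trend or robust (statmod 1.5.0), and leaving out each library.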

Additional observations from a re-analysis of the deposited data

How the results depend on the processing

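*Col22a1* was the 1 chain called as deposited. No chain was called with run as a covariate, with a replicate block, with libraries centred or quantile normalized, after rescaling to protein-coding genes or with GC and length trends removed (0 in each). Leaving out 1 library gave 0 to 6 called chains, the 6 (*Col8a1*, *Col8a2*, *Col12a1*, *Col14a1*, *Col16a1*, *Col22a1*) coming without control replicate 2, where group and run coincide and 18.3% of all genes were called. It also gave 4 to 9 chains whose groups did not overlap, the 9 without control replicate 2, where 52.0% of all genes did not overlap, against 22.3 to 35.4% without any other library. With run as a covariate, 3 chains (*Col8a2*, *Col12a1* and *Col22a1*) had an unadjusted limma p under 0.05 instead of 5. The share of all genes under that threshold is not given for this fit, so the count has no background to be read against. Over all genes, 37 were called as deposited, 50 (0.331%) with run as a covariate, 18 with centring, 17 with quantile normalization, 17 after rescaling, 15 with trends removed, 16 with a pseudocount of 0.1, 0 with a replicate block and 8 to 2768 without 1 library, the 2768 without control replicate 2. The median over the chains was 0.71, and 0.16 with run as a covariate or in the second run alone, 0.30 with centring, 0.34 with quantile normalization and 0.23 after rescaling. The median of all genes was 0.36, and 0.29, -0.060, -0.048 and -0.051 in the same order. The cause of these shifts was not tested.

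Signs turned for chains with small differences. *Col6a1* was at -0.21 with run as a covariate and in the second run alone, -0.14 centred, -0.12 quantile normalized, -0.21 rescaled and -0.41 with trends removed. *Col6a2* was at -0.14 with run as a covariate and in the second run alone, -0.074 quantile normalized, -0.022 rescaled and -0.14 with trends removed. *Col6a3* was at -0.43 with run as a covariate and in the second run alone, -0.25 centred, -0.19 quantile normalized, -0.32 rescaled, -0.44 with trends removed and, without 1 library, between -0.013 (Hsp47-deleted replicate 1) and 0.46. *Serpinh1* was at -0.87 with run as a covariate and in the second run alone, -0.34 centred, -0.27 quantile normalized, -0.41 rescaled, -0.65 with trends removed and, without 1 library, between -0.21 and 0.54. The ratio of *Col14a1* to *Col1a1* differed by -0.23 in the second run alone and by -0.18 (control replicate 4) to 0.18 (control replicate 2) without 1 library, with -0.089 without Hsp47-deleted replicate 3. The share of the 9 chains in the collagen total differed by -1.82 percentage points in the second run alone.

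The groups share replicate numbers 2 and 3, but samples with the same number did not come from the same animal and gave 2 pairs only (correlation of deviations 0.156 and 0.228, other pairs from -0.417 to 0.382), so the numbers were not taken as pairs. With the replicate number as a block, *Col22a1* was at 2.33 (limma, BH-adjusted p = 0.353), *Col6a3* -0.16 and *Serpinh1* -0.28.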

Other observations

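The genes whose course over the 6 libraries lay nearest to a chain were read as a description, by the Euclidean distance between log2 values centred on their means, over 12887 protein-coding genes. Nearest to *Col22a1* were *Angptl7* at a distance of 0.47, *Chad* at 0.579 and *Gm14295* at 0.597. *Chad* encodes chondroadherin, a small leucine-rich matrix protein that binds collagen, and stood at 2.85 ± 0.38 (SD, n = 3) in the controls and 5.28 ± 0.45 (SD, n = 3) in the Hsp47-deleted libraries (difference 2.43, limma, BH-adjusted p = 0.0562). *Angptl7*, a secreted angiopoietin-like protein, rose from 5.24 ± 0.31 (SD, n = 3) to 7.34 ± 0.14 (SD, n = 3), a difference of 2.10 (limma, BH-adjusted p = 0.0485), and was 1.77 above control replicate 2. Nearest to *Col8a2* were *Med24* at 0.22, *Hexim1* at 0.3 and 1500015O10Rik at 0.314. With 6 libraries, a small distance says nothing of shared function or control. These genes were picked by their course over the same libraries. Their group differences and p-values follow in part from that choice and are no added evidence.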
